A study of Mus musculus with 8 samples.

Results

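The collagen chain genes were taken as every row of the deposited count table whose symbol is Col, a number, a and a number. The rule found 43 genes among 24155 in the table, all protein-coding, and used no measured value. Each of the 24155 totals at least 10 counts over the 8 libraries, and Col10a1 is not among them. They were grouped into 11 fibrillar chains, 8 basement membrane chains (types IV, XV and XVIII) and 24 other chains. The position of all 43 matched the GENCODE M21 annotation of GRCm38 (mm10).

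Collagen chains wind together into a helix, and many collagens are built from unlike chains, so that the genes of a type are needed together. Fibrillar collagens form cross-striated fibrils, type IV collagen forms the sheet of basement membranes, and fibril-associated collagens sit on the surface of fibrils. In the brain, collagens lie mainly in the vessel wall and the meninges, and the space around glia holds little fibrillar collagen. Oligodendrocyte progenitors divide and mature into oligodendrocytes, the glia that wrap axons in myelin.

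Polyadenylated RNA was sequenced from 8 cultures of mouse oligodendrocyte progenitors. The cells came by immunopanning, which captures cells on antibody-coated dishes, from male and female pups at postnatal day 7 homozygous for floxed Ehmt1 and Ehmt2 (Ehmt1fl/fl;Ehmt2fl/fl). Both groups share these alleles, a growth medium with 10 ng/mL PDGF-AA and 20 ng/mL bFGF, and a 6 hour exposure to adenovirus encoding red fluorescent protein (multiplicity of infection 10). The control group (4 libraries) received Ad-RFP and the cKO group (4 libraries) received Ad-RFP-iCre, whose Cre recombinase deletes the floxed segments, and RNA was collected 72 hours after infection. Ehmt1 and Ehmt2 encode partner histone methyltransferases of histone H3 lysine 9. The batches are numbered 1, 3, 4 and 6, and each supplied 1 control and 1 cKO library; replicate numbers below are these. The labels do not say whether batches are separate animals or how many pups were pooled, so p-values measure the spread between pairs of libraries, which may be partly technical. The share of cells that recombined is not given, and loss of RNA per cell and loss in a share of cells cannot be told apart in bulk RNA.

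Totals ran from 43542742 to 65374488 estimated counts per library. Both targeted genes fell in 4 of 4 pairs, Ehmt1 by a log2 fold change of -1.20 ± 0.04 (SE) and Ehmt2 by -1.60 ± 0.03, with adjusted p of 7.41e-08 and 2.16e-09 in edgeR's quasi-likelihood test. The progenitor markers Olig1 and Ptprz1 were abundant, at 1837 ± 444 and 3836 ± 608 CPM in control (SD, n = 4). CPM, the usual unit for libraries of unlike depth, is a gene's count as a share of its library's total on a fixed scale, with library sizes adjusted by TMM factors.

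The control progenitors had a collagen profile led by minor fibrillar and fibril-associated chains. Levels are compared between genes per kb of exon, in CPM per kb. Col11a1, a chain of type XI collagen that starts and limits fibrils in cartilage, was highest at 14.4 ± 9.66 CPM per kb (SD, n = 4). Col9a3, a chain of the fibril-associated type IX collagen, followed at 5.11 ± 1.09, then its partner Col9a1 at 3.97 ± 4.22. Col5a1, a chain of the type V collagen that sets fibril diameter, stood at 3.81 ± 0.998 and the fibril-associated Col16a1 at 2.92 ± 0.479 CPM per kb. Col11a1 lay above these in each of the 4 control libraries, whereas Col9a3, Col9a1, Col5a1 and Col16a1 changed places between libraries.

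The chains of the abundant fibrils of skin, bone and cartilage were near the floor. Col1a1 reached 0.0652 ± 0.0291 CPM per kb, Col1a2 0.0102 ± 0.00683 and Col2a1 0.0279 ± 0.0129 (SD, n = 4). Col3a1 had 2, 1, 1 and 0 counts in control replicates 1, 3, 4 and 6. Of the 43 chains, 18 were under 1 CPM in all 8 libraries. Among basement membrane chains, Col4a5 (2.13 ± 1.22 CPM per kb) was above the common pair Col4a1 (0.958 ± 0.245) and Col4a2 (0.398 ± 0.0954), though in the lowest control library, replicate 3, Col4a5 was at 0.784 CPM per kb.

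**Figure D1:**
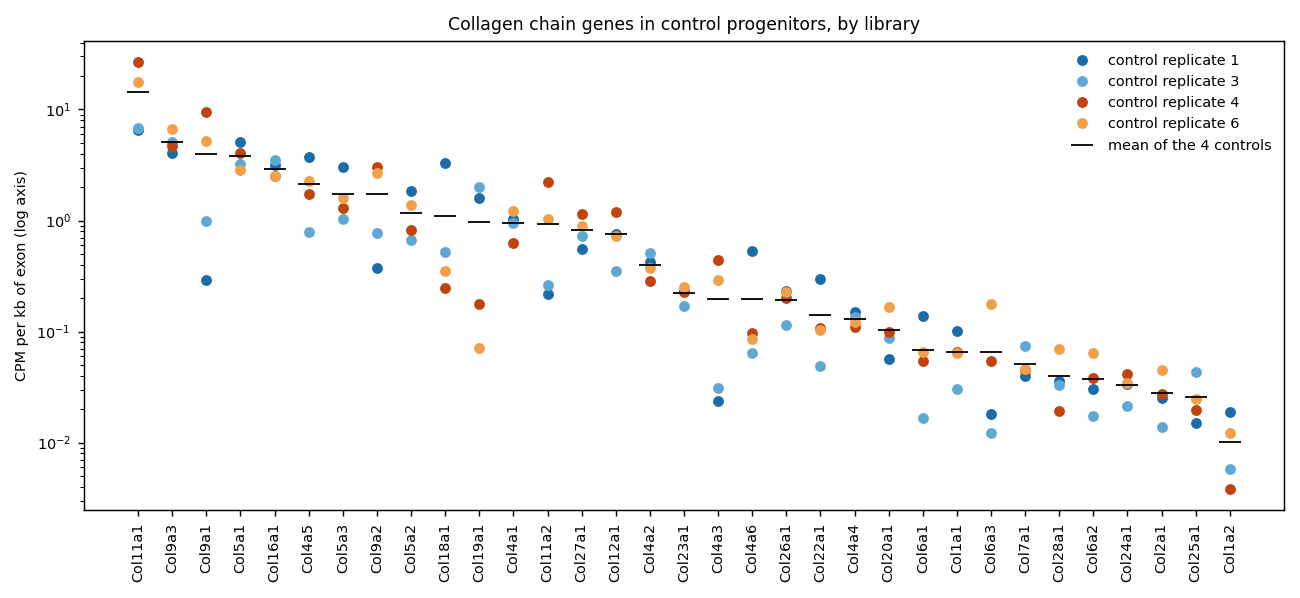
Level of the 33 tested collagen chain genes in control progenitors, in CPM per kb of exon on a log axis; each point is 1 control library, coloured by replicate, and black bars are means of the 4 libraries. Col11a1 is highest and Col1a2 lowest, and the points of Col9a1, Col19a1 and Col4a3 split into replicates 1 and 3 against 4 and 6.

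Several chains differed more between control batches than between control and cKO. In 10 of the 33 tested chains the highest control library was at least 5 times the lowest. Col9a1 was at 1.47, 5.05, 47.7 and 26.4 CPM in control replicates 1, 3, 4 and 6, a ratio of 32.4 between the highest and the lowest. Col4a3 was at 0.235, 0.308, 4.41 and 2.92 CPM in the same order, with replicates 4 and 6 again high. Col19a1 ran the other way, at 11.1, 13.9, 1.22 and 0.492 CPM. Col18a1 was high in replicate 1 alone, at 23.2 CPM against 3.64, 1.73 and 2.44. Gpr17, a receptor gene of progenitors that are about to differentiate, was at 102 and 488 CPM in control replicates 1 and 3 and at 5377 and 3905 in 4 and 6. Pmp22, a myelin gene of Schwann cells that other cells express too, was at 152 and 165 CPM in replicates 1 and 3 and at 29.8 and 24.1 in 4 and 6. The 8 Schwann cell markers together, of which 3 were under 1 CPM in all libraries, came to 187, 199, 42.1 and 33.3 CPM in control. The part of other cells or of maturation in these batch differences was not tested.

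The question for the members was which chains differ between cKO and control when libraries are paired by batch. Of 33 chains with enough counts to be tested, 9 rose in cKO, 4 fell and 20 did not pass. Among the 9, Col1a2 and Col28a1 had enough counts only through their cKO libraries. "Rose" and "fell" mean a Benjamini-Hochberg adjusted p under 0.05 over all 18102 genes tested, when edgeR takes the batch of each library into account as a block. The 13 chains past the threshold are 39.4% of those tested, and over all genes tested the share was 20.5% (10.0% higher and 10.4% lower). The direction was the same in all 4 pairs for 17 of 33 chains and for 40.7% of all genes tested. The fit compares the same pairs, so for a called gene such agreement is not separate evidence. The median absolute log2 fold change was 0.45 over the tested chains and 0.12 over all genes. These medians were not matched for level: 7 of the 33 chains averaged 10 CPM or more, against 10086 of 18102 genes. The share called varied with level over all genes, from 7.67% under 1 CPM to 17.1% at 1 to 10 CPM and 26.7% above, against 3 of 10, 8 of 16 and 2 of 7 chains. Without the block, 0 of the 33 chains passed edgeR's test and 5 had an unadjusted p under 0.05, and over all genes 0.0166% passed. The number of chains that rose was 5 rather than 9 without replicate 1, and the number that fell was 2 rather than 4 without replicate 4.

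The summed level of the chains did not move one way. All 43 chains together came to 311, 237, 567 and 425 CPM in control replicates 1, 3, 4 and 6 and to 379, 270, 505 and 380 CPM in cKO. The sum was higher in cKO in replicates 1 and 3 and lower in 4 and 6, which is the pattern of Col11a1, its largest part. Col11a1 was at 83.2, 87.3, 340 and 223 CPM in control and at 120, 126, 263 and 188 CPM in cKO. Over the 4 pairs its log2 fold change of 0.10 ± 0.23 (SE) did not pass (adjusted p = 0.823 in edgeR), and the sign of that mean turned without replicate 1 (-0.04) or replicate 3 (-0.04) and without the block (-0.08).

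**Figure D2:**
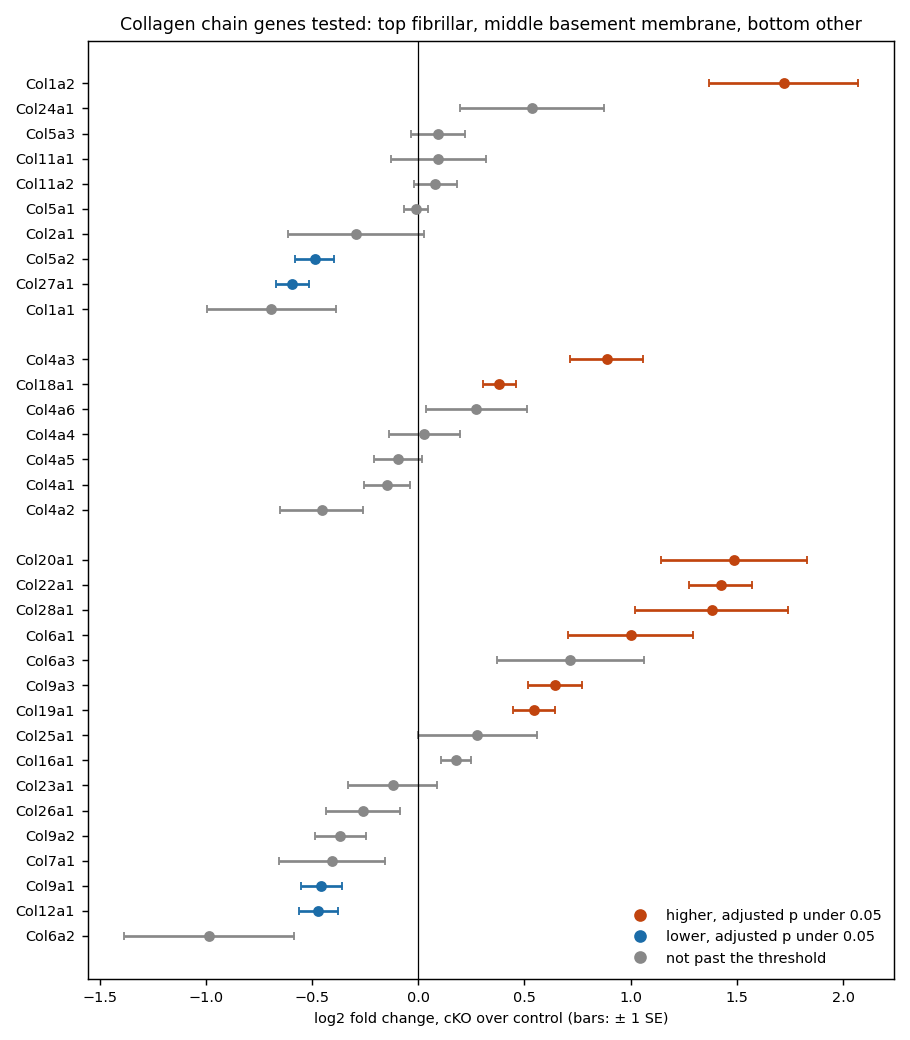
Log2 fold change of cKO over control for the 33 tested collagen chain genes, with bars of 1 SE, from edgeR's fit with the replicate block. Orange points rose, blue points fell and grey points did not pass. The largest rises are Col1a2 (1.72), Col20a1 (1.49), Col22a1 (1.42) and Col28a1 (1.38). Col1a2 and Col28a1 were kept for testing only through their cKO libraries.

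Fibrillar chains moved in both directions. Of 10 tested, Col1a2 rose, Col27a1 and Col5a2 fell and 7 did not pass, with a median log2 fold change of 0.04. The 30% called is near the 20.5% of all genes tested. Col27a1, a fibrillar chain of cartilage, was at 7.18, 9.48, 14.8 and 11.7 CPM in control replicates 1, 3, 4 and 6 and at 5.43, 6.41, 9.53 and 6.97 CPM in cKO. It was lower in each pair while the groups overlapped, and its log2 fold change was -0.59 ± 0.08 (SE; adjusted p = 0.000595 in edgeR). Col5a2, the second chain of most type V collagen, was at 17.6, 6.37, 7.95 and 13.3 CPM in control and at 12.8, 3.40, 6.29 and 10.4 CPM in cKO. It too was lower in 4 of 4 pairs, by -0.49 ± 0.09 (adjusted p = 0.00484 in edgeR). Both calls held without any 1 pair of libraries.

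The other type V chains did not follow Col5a2. Col5a1 was at 43.4, 27.3, 34.3 and 24.3 CPM in control and at 47.3, 25.0, 30.9 and 26.1 CPM in cKO, a log2 fold change of -0.01 ± 0.05 (SE; adjusted p = 0.924 in edgeR). Its sign depended on the setting, at 0.003749 with upper-quartile scaling. Col5a3, a type V chain of fewer tissues, was at 20.5, 7.09, 8.82 and 10.9 CPM in control and 24.1, 5.03, 11.6 and 11.7 CPM in cKO, higher in 3 of 4 pairs (0.10 ± 0.13, adjusted p = 0.658 in edgeR). Col11a2, the second type XI chain, was at 1.49, 1.79, 15.4 and 7.12 CPM in control and 1.62, 2.14, 18.0 and 6.13 CPM in cKO (0.08 ± 0.10, adjusted p = 0.634 in edgeR). For both, the batches were much further apart than control and cKO.

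Col1a2, the alpha 2 chain of type I collagen, rose from a very low level, with 12, 4, 3 and 8 counts in control replicates 1, 3, 4 and 6 and 35, 9, 16 and 31 in cKO. Col1a2 was kept for testing only through its cKO libraries, so its selection depended on that rise. Its log2 fold change was 1.72 ± 0.35 (SE; adjusted p = 0.00692 in edgeR), and it was higher in each of the 4 pairs, though the groups overlapped. Col1a1, the alpha 1 chain with which it assembles, had 34, 11, 27 and 22 counts in control and 17, 4, 14 and 24 in cKO, and did not pass (-0.69 ± 0.31, adjusted p = 0.137 in edgeR). Scaled by library size, Col1a1 was lower in 4 of 4 pairs while Col1a2 was higher in 4 of 4. Col3a1, the usual companion of type I fibrils, had 2, 1, 1 and 0 counts in control and 9, 1, 2 and 0 in cKO, too few to test. Type I and III collagens are typical products of fibroblasts and mural cells. Of the 13 fibroblast and leptomeningeal markers analysed, 11 were under 1 CPM in all libraries, their sum ran from 31.9 to 57.2 CPM in control and from 27.3 to 43.3 in cKO, and it was lower in cKO in 4 of 4 pairs. Fbln1 (37.5 ± 15.8 CPM in control) and Islr (6.85 ± 6.21) made up most of that sum. Of 5 tested markers, Fbln1 fell and none rose, and Dcn, Dpt and Twist1 were not among the 24155 genes counted. Mural markers summed to between 25.3 and 124 CPM in control and between 21.3 and 95.0 in cKO, most of it Notch3, which progenitors may also express. Of 5 mural markers tested, Rgs5, a pericyte gene, rose (1.22 ± 0.31, adjusted p = 0.02 in edgeR) and Notch3 fell. Of 9 mural markers, 5 were under 1 CPM in all libraries. The share called was 40% for the mural list and 20% for the fibroblast and leptomeningeal list, against 20.5% of all genes tested. The part of such cells in the rise of Col1a2 was not tested.

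**Figure D3:**
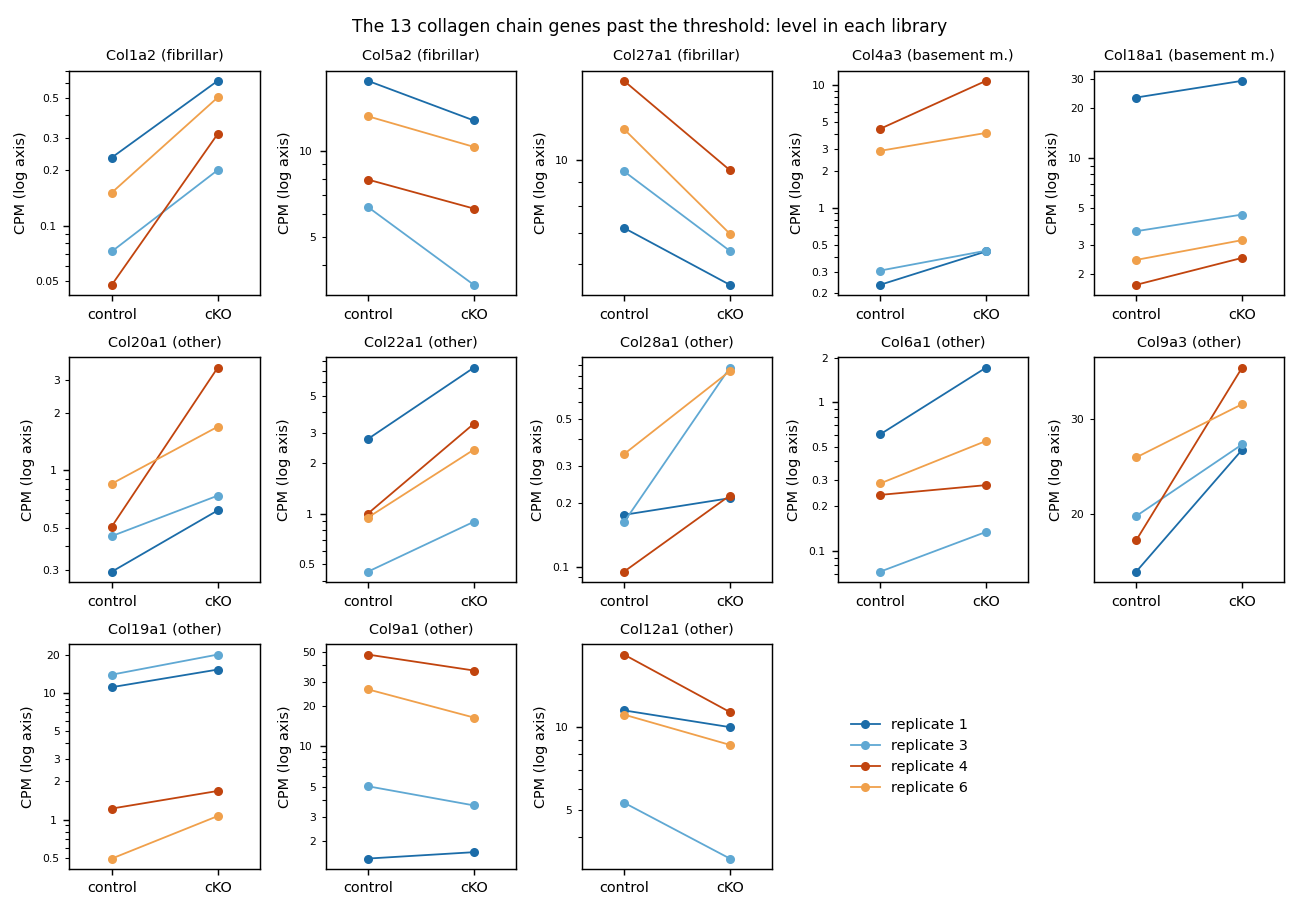
The 13 collagen chain genes past the threshold, in CPM on log axes that differ between panels; lines join the control and cKO library of the same replicate. Of the 4 chains that fell, Col9a1 has 1 rising line (replicate 1), and the 9 chains that rose go up in 4 of 4 pairs. Over all genes tested, 40.7% went the same way in 4 of 4 pairs.

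Among basement membrane chains, 2 of 7 tested rose (28.6% called, near the 20.5% of all genes, and 1 call without replicate 1 or replicate 4), 0 fell at an adjusted p under 0.05 and 5 did not pass; 3 of the 7 had an unadjusted p under 0.05, and DESeq2 with the block called 0 of them lower. The median log2 fold change was 0.03. Col4a3, a chain of the specialised network of kidney, lung and inner ear, was at 0.235, 0.308, 4.41 and 2.92 CPM in control and at 0.441, 0.447, 10.9 and 4.08 CPM in cKO. It rose 1.85-fold, by a log2 fold change of 0.89 ± 0.17 (SE; adjusted p = 0.00575 in edgeR), within batches whose levels differed far more. Without replicate 4 its log2 fold change was 0.59 and its adjusted p 0.113 in edgeR. Col18a1, a basement membrane proteoglycan whose tail is released as endostatin, was at 23.2, 3.64, 1.73 and 2.44 CPM in control and at 29.2, 4.58, 2.51 and 3.21 CPM in cKO. It rose 1.30-fold (0.38 ± 0.08, adjusted p = 0.00717 in edgeR), by 0.33 to 0.53 on the log2 scale in the 4 pairs, and had an adjusted p of 0.0695 without replicate 1 (0.42). Col18a1 lies opposite Slc19a1, whose log2 fold change was -0.05 ± 0.07.

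Type IV collagen genes lie in pairs that are read away from each other from a shared stretch of DNA, which the pairs below show. The sequences are given for Col4a3 and Col4a4, which moved unlike each other, and for the common pair Col4a1 and Col4a2, and run 5′ to 3′ on the plus strand from the RefSeq promoter table of GRCm38.p6. The first spans chr1:82586820-82586950, with the 71 bases between the starts of Col4a4 (minus strand) and Col4a3 (plus strand) in capitals and 30 bases of each gene beside them. The second spans chr8:11312775-11312856, with the 22 bases that the Col4a1 (minus strand) and Col4a2 (plus strand) models share in capitals.
Col4a3/Col4a4: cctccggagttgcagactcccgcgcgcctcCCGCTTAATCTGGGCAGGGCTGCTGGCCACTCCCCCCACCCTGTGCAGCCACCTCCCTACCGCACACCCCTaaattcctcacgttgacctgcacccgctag
Col4a1/Col4a2: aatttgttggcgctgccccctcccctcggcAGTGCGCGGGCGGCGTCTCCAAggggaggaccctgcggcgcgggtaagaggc

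From the first stretch, Col4a3 rose and Col4a4 did not pass. Col4a4, which assembles with Col4a3 and Col4a5, was at 1.61, 1.45, 1.17 and 1.29 CPM in control and at 1.69, 1.30, 0.969 and 1.73 CPM in cKO (0.03 ± 0.17, adjusted p = 0.927 in edgeR; -0.11 without replicate 6). Col4a4 stayed within a ratio of 1.37 over the control libraries, where Col4a3 spanned 18.7. The change of Col4a3 exceeded that of Col4a4 in 4 of 4 pairs, by 0.75 ± 0.62 on the log2 scale (SD, n = 4 pairs). The 2-sided p was 0.125 by exact permutation of signs within pairs, the smallest that 4 pairs allow. The noncoding gene C430014B12Rik lies opposite Col4a3 and did not pass (-0.18 ± 0.24). The strand setting of the counting is not given here.

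From the second stretch, neither gene passed. Col4a1 was at 7.71, 7.07, 4.73 and 9.11 CPM in control and at 8.33, 5.85, 4.96 and 6.52 CPM in cKO (-0.15 ± 0.11 SE, adjusted p = 0.375 in edgeR). Col4a2 was at 2.78, 3.40, 1.89 and 2.46 CPM in control and at 2.91, 1.99, 0.830 and 2.23 CPM in cKO (-0.45 ± 0.20, adjusted p = 0.135 in edgeR). The third pair lies on the X chromosome, 1308 bases apart. Col4a5 was at 24.9, 5.26, 11.6 and 15.4 CPM in control and at 25.7, 3.19, 12.1 and 15.0 CPM in cKO (-0.09 ± 0.11, adjusted p = 0.606 in edgeR; 0.03 without replicate 3). Col4a6 was high in replicate 1 of both groups, at 4.24 CPM in control and 4.25 in cKO against 0.268 to 1.29 CPM in the other libraries, and did not pass (0.27 ± 0.24).

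The other chains held most of the calls, 6 rising and 2 falling of 16 tested, with a median log2 fold change of 0.23. That is 50% called, against 20.5% of all genes tested. With a filter of 1 CPM in 4 libraries, 5 of 10 were called. Col22a1, a fibril-associated chain of the muscle and tendon junction, rose most firmly. It was at 2.76, 0.452, 0.999 and 0.947 CPM in control replicates 1, 3, 4 and 6 and at 7.31, 0.893, 3.40 and 2.39 CPM in cKO. The rise was 2.68-fold, a log2 fold change of 1.42 ± 0.15 (SE; adjusted p = 0.000177 in edgeR), with 0.93 to 1.73 within pairs. It held without any 1 pair of libraries.

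Col20a1, a less studied fibril-associated chain, was at 0.294, 0.452, 0.508 and 0.852 CPM in control and at 0.617, 0.737, 3.46 and 1.70 CPM in cKO. Replicate 4 rose most, by 2.68 on the log2 scale against 0.66 to 0.98 in the other pairs, for a fitted change of 1.49 ± 0.35 (adjusted p = 0.0195 in edgeR). Without replicate 1 the adjusted p was 0.0501, and without replicate 4 the change was 0.93. It overlaps 9230112E08Rik on the same strand, which did not pass (0.08 ± 0.11). Col28a1, a chain known from peripheral nerve, had 9, 9, 6 and 18 counts in control and 12, 39, 11 and 52 in cKO (1.38 ± 0.36, adjusted p = 0.0224 in edgeR). Like Col1a2, Col28a1 was kept for testing only through its cKO libraries. Replicates 3 and 6 carried most of its rise, and the adjusted p was 0.131 without replicate 3, 0.0539 without 4, 0.0614 without 6 and 0.0621 in DESeq2.

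Type IX collagen is built from the products of Col9a1, Col9a2 and Col9a3, which moved apart. Col9a3 was at 15.6, 19.8, 17.9 and 25.5 CPM in control and at 26.3, 26.9, 37.4 and 32.0 CPM in cKO. Every cKO library lay above every control library. No other tested chain had groups that did not overlap, against 3.68% of all tested genes (2.40% higher and 1.28% lower in cKO). Col9a3 rose 1.56-fold (0.64 ± 0.13 SE, adjusted p = 0.0208 in edgeR), with an adjusted p of 0.0757 without replicate 1 (0.61). Its end overlaps Tcfl5, a transcription factor gene on the opposite strand, over 234 bases, and Tcfl5 fell from 2.80 ± 1.28 to 0.835 ± 0.302 CPM (SD, n = 4).

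Col9a1 was at 1.47, 5.05, 47.7 and 26.4 CPM in control and at 1.64, 3.64, 36.3 and 16.3 CPM in cKO. It was lower in 3 of 4 pairs and fell by a log2 fold change of -0.46 ± 0.10 (adjusted p = 0.0121 in edgeR), with an adjusted p of 0.0532 without replicate 3 (-0.46) and 0.078 without replicate 4 (-0.45). Col9a2 was at 1.16, 2.41, 9.42 and 8.27 CPM in control and at 1.13, 1.77, 8.34 and 5.20 CPM in cKO, lower in each pair. It lay just outside the threshold (-0.37 ± 0.12, adjusted p = 0.0531 in edgeR) and inside it with RLE scaling (0.0495), with no filter (0.0469) and in limma-voom (0.0406). The change of Col9a3 exceeded that of Col9a1 by 0.99 ± 0.35 and that of Col9a2 by 0.97 ± 0.19 on the log2 scale (SD, n = 4 pairs), in 4 of 4 pairs each. The exact paired permutation p was 0.125 for both, the smallest possible, and 0.167 adjusted over 8 such comparisons of chains.

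**Figure D4:**
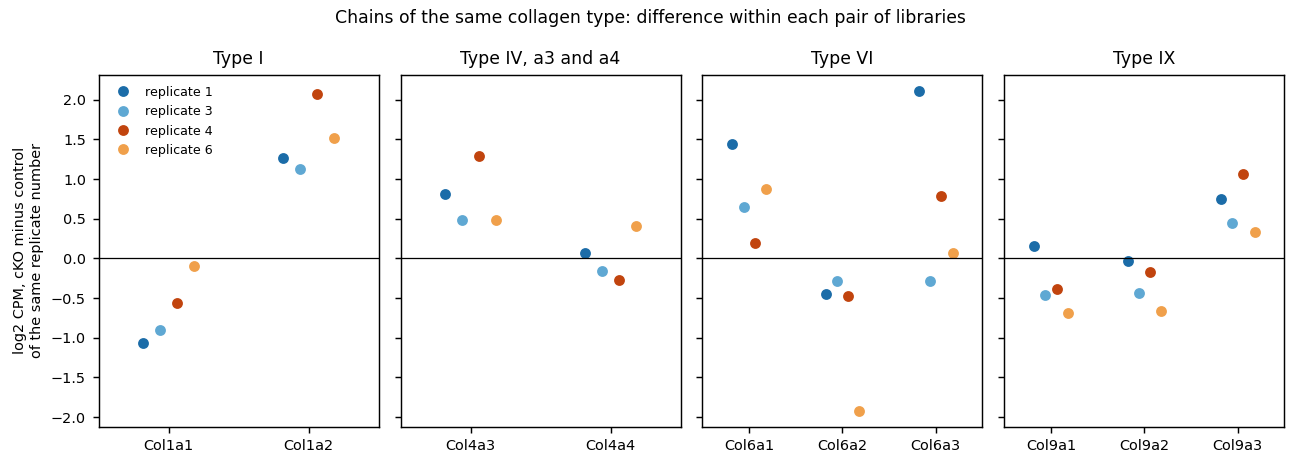
Difference in log2 CPM between cKO and control of the same replicate, for chains of 4 collagen types; each point is 1 pair of libraries. Col1a2 lies above Col1a1, Col4a3 above Col4a4, Col6a1 above Col6a2 and Col9a3 above Col9a1 and Col9a2 in each of the 4 pairs. The other type IV pairs are not drawn: Col4a1 lay above Col4a2 in 3 of 4 pairs and Col4a5 above Col4a6 in 2 of 4.

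Type VI collagen, which forms beaded filaments from the products of Col6a1, Col6a2 and Col6a3, was low throughout. Col6a1 had 31, 4, 15 and 15 counts in control and 97, 6, 14 and 34 in cKO. It rose (0.9995 ± 0.30 SE, adjusted p = 0.0368 in edgeR), but its adjusted p was 0.31 without replicate 1 (0.66), 0.0761 without 3, 0.0768 without 6 and 0.149 in DESeq2. Col6a2 had 13, 8, 20 and 28 counts in control and 10, 5, 11 and 7 in cKO, lower in each pair without passing (-0.98 ± 0.40, adjusted p = 0.108 in edgeR). Col6a3 had 11, 8, 41 and 111 counts in control and 60, 5, 58 and 137 in cKO, with most of its increase in replicate 1 (0.72 ± 0.35, adjusted p = 0.187 in edgeR). The changes of Col6a1 and Col6a2 differed by 1.57 ± 0.97 on the log2 scale (SD, n = 4 pairs; exact paired permutation p = 0.125, 2-sided). Both genes lie on chromosome 10, 85161 bases apart.

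Col19a1 and Col9a1 are neighbours on chromosome 1 and changed in opposite directions. Col19a1 is a fibril-associated chain that some neurons make. It was at 11.1, 13.9, 1.22 and 0.492 CPM in control and at 15.3, 20.0, 1.68 and 1.07 CPM in cKO, a rise of 0.55 ± 0.10 (SE; adjusted p = 0.00364 in edgeR) that held without any 1 pair. Their ends lie 9205 bases apart, with Col9a1 on the plus strand (24177610 to 24252684) and Col19a1 on the minus strand (24261890 to 24587472). They were also mirror images between batches, Col9a1 high in replicates 4 and 6 and Col19a1 high in 1 and 3. The bases before the start of these genes are printed for that contrast, and those of Col20a1 and Col28a1 because both rose more than 2-fold, each 5′ to 3′ on the gene's strand with CpG dinucleotides in capitals. Windows end at the base before the gene model and come from the RefSeq promoter table of GRCm38.p6, at chr1:24177360-24177609 (plus), chr1:24587473-24587687 (minus), chr2:180986285-180986534 (plus) and chr6:8192618-8192867 (minus).
Col9a1: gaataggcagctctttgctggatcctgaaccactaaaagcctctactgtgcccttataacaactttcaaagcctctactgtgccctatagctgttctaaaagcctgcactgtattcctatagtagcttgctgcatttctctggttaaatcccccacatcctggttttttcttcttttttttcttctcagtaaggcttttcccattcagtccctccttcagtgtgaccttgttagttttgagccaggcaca
Col19a1: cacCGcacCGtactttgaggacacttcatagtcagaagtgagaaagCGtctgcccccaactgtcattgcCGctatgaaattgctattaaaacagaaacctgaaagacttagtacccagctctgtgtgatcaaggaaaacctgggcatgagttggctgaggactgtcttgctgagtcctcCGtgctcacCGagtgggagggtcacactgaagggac
Col20a1: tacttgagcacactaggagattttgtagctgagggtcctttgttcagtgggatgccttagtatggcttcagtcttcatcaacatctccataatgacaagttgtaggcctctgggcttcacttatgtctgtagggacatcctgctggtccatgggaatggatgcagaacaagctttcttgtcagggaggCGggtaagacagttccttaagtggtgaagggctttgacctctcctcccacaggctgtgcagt
Col28a1: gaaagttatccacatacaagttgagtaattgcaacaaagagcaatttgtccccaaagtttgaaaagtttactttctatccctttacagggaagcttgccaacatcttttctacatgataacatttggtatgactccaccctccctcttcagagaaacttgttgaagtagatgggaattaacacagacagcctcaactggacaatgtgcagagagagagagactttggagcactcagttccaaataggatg

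The Col9a1 and Col28a1 windows hold 0 CpG, the Col20a1 window 1 and the Col19a1 window 6. In the full RefSeq windows, which run past the start, Col19a1 has 16 CpG, Col1a2, the chain with the largest rise, has 13, and Col3a1, which was not tested, has 0. Over the 37 RefSeq windows that matched 34 of the 43 chains, from 250 bases before to 50 after the start, the median was 12 CpG, against 7 over all 32851 windows of the table. The letters GGGCGG, a GC box, stood on either strand in 62.2% of the chain windows and 35.7% of all windows. TATAAA stood in 10.8% and 13.6%, and CCAAT in 35.1% and 37.4%. A match is a description of letters and not a binding site.

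Col12a1, a fibril-associated chain of tendon and skin, fell. It was at 11.5, 5.34, 18.3 and 11.1 CPM in control replicates 1, 3, 4 and 6 and at 10.0, 3.35, 11.4 and 8.64 CPM in cKO, a log2 fold change of -0.47 ± 0.09 (SE; adjusted p = 0.00575 in edgeR, and 0.0508 without replicate 4). It was lower in 4 of 4 pairs while the groups overlapped. Col16a1, also fibril-associated, was at 21.4, 23.4, 17.1 and 16.9 CPM in control and at 23.8, 22.3, 22.6 and 19.8 CPM in cKO. It did not pass (0.18 ± 0.07, adjusted p = 0.109 in edgeR), though it did without replicate 3 (0.26, adjusted p = 0.0318). The remaining tested chains, Col7a1, Col23a1, Col24a1, Col25a1, Col26a1 and Col2a1, did not pass and had log2 fold changes from -0.41 to 0.54; that of Col23a1 was 0.09 without replicate 3 against -0.12 with it.

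The 10 chains too low to be tested had at most 42 counts in any library. Col6a6, a type VI chain, had 0, 0, 1 and 0 counts in control replicates 1, 3, 4 and 6 and 3, 2, 42 and 16 in cKO, so that the groups did not overlap. It passed where no filter was applied (adjusted p = 0.000328 in edgeR). Col8a1, a chain of vessel and corneal networks, had 6, 0, 3 and 1 counts in control and 25, 1, 4 and 9 in cKO. Col15a1 had 0, 0, 2 and 0 counts and then 6, 2, 2 and 1. Col8a2 went the other way, with 10, 15, 8 and 10 counts in control and 11, 4, 2 and 11 in cKO. Of the 10, only Col6a6 passed without the filter, and the next smallest adjusted p was 0.0893 for Col8a1.

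Over 5 lists of genes that act on collagen or bind it, 6 of 67 tested genes rose, 27 fell and 34 did not pass, with a median log2 fold change of -0.14 against -0.01 over all genes and 10.4% of all genes falling. In the level range above 10 CPM, where falls were more common among all genes (1639 of 10086), 16 of 36 fell. Without replicate 4 the number that fell was 17, and without the block 0 of 67 passed edgeR's test and 8 had an unadjusted p under 0.05. The chains themselves rose more often than they fell, 9 against 4, while the folding enzymes and receptors had 0 rises. Direction also varied with level over all genes. Under 1 CPM 250 rose and 40 fell, at 1 to 10 CPM 515 and 210, and above 10 CPM 1052 and 1639. In the same ranges 3, 5 and 1 chains rose and 0, 3 and 1 fell. The difference in direction between the chains and these lists was not tested.

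Of 19 genes that fold and modify collagen, 9 fell and 0 rose at an adjusted p under 0.05 in edgeR, and 12 had an unadjusted p under 0.05. The share called was 47.4%, against 20.5% of all genes tested. Fkbp10, a collagen chaperone, was at 8.57, 1.97, 4.12 and 5.23 CPM in control and at 4.28, 0.916, 2.23 and 2.49 CPM in cKO (-1.01 ± 0.10 SE). The collagen galactosyltransferase gene Colgalt2 fell by -0.61 ± 0.08, Serpinh1, which encodes the collagen chaperone HSP47, by -0.28 ± 0.04, and P4hb, a subunit of prolyl 4-hydroxylase, by -0.13 ± 0.03 (adjusted p = 0.0563 in edgeR without replicate 3). Each of these 4 was lower in 4 of 4 pairs. The lysyl hydroxylase genes Plod1 (-0.12) and Plod2 (-0.14) also fell, as did the prolyl 3-hydroxylase family genes P3h1, P3h3 and P3h4.

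Of 10 receptor genes for collagen, 5 fell and 0 rose at an adjusted p under 0.05 in edgeR, and 6 had an unadjusted p under 0.05. The share called was 50%, against 20.5% of all genes tested. Itga2, the alpha 2 integrin that binds fibrillar collagen, was at 3.29, 1.72, 6.20 and 12.2 CPM in control and at 1.55, 1.05, 4.03 and 7.31 CPM in cKO (-0.77 ± 0.11 SE, adjusted p = 0.000898 in edgeR). Adgrg1, an adhesion receptor that binds collagen III and keeps progenitors dividing, fell by -0.20 ± 0.03 from 393 ± 84.2 CPM (SD, n = 4). The uptake receptor gene Mrc2 (-0.47 ± 0.12) and the discoidin receptor gene Ddr1 (-0.14 ± 0.04) fell too. Without replicate 3 or replicate 4 the adjusted p in edgeR was 0.0851 and 0.0947 for Mrc2 and 0.113 and 0.0857 for Ddr1, and Ddr1 had 0.0596 without replicate 6. Itgb1, the shared beta subunit, did not pass (-0.05 ± 0.03).

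Of 11 genes of procollagen cleavage and crosslinking, 3 fell and 0 rose at an adjusted p under 0.05 in edgeR, and 5 had an unadjusted p under 0.05. The 27.3% called is near the 20.5% of all genes tested. Adamts3, a protease that removes the amino-terminal propeptide, was at 14.0, 23.3, 15.8 and 13.6 CPM in control and at 9.67, 13.5, 7.67 and 8.02 CPM in cKO (-0.78 ± 0.08 SE, adjusted p = 0.000167 in edgeR). Every cKO library lay below every control library, by a narrow margin between cKO replicate 3 and control replicate 6. The others were the tolloid protease gene Tll2 (-1.19 ± 0.34, adjusted p = 0.17 without replicate 3, 0.146 without replicate 4 and 0.066 in DESeq2) and the lysyl oxidase gene Loxl2 (-0.51 ± 0.15). Loxl2 lost its call without any 1 pair, with adjusted p in edgeR from 0.0707 to 0.137, and in DESeq2 (0.0767).

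Breakdown genes were split, 3 higher and 3 lower of 11 tested, or 54.5% called against 20.5% of all genes tested. The membrane metalloprotease gene Mmp16 (0.34 ± 0.05 SE), the gelatinase gene Mmp2 (1.17 ± 0.18) and the inhibitor gene Timp1 (1.47 ± 0.27, from a mean of 0.276 CPM in control) rose. The inhibitor genes Timp3 and Timp4 and the protease gene Mmp11 (-0.94 ± 0.25) fell. Timp3 was at 170, 132, 226 and 455 CPM in control and at 124, 107, 165 and 306 CPM in cKO (-0.45 ± 0.04, adjusted p = 0.000104 in edgeR).

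Basement membrane partners of type IV collagen also went both ways, 3 higher and 7 lower of 16 tested. The share called was 62.5%, against 20.5% of all genes tested. The laminin gene Lama1 was at 17.8, 16.4, 9.74 and 18.4 CPM in control and at 11.5, 9.31, 4.73 and 10.0 CPM in cKO (-0.83 ± 0.07 SE, adjusted p = 7.15e-05 in edgeR). The linker genes Nid1 (-0.60 ± 0.11) and Nid2 (-0.79 ± 0.12), the laminin genes Lama5 (-0.25) and Lamb2 (-0.56), the proteoglycan gene Agrn (-0.22) and Pxdn, whose product crosslinks type IV collagen (-0.29 ± 0.04), fell. Among those that rose were the laminin genes Lama2 (0.73 ± 0.15) and Lama4 (0.52 ± 0.07).

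**Figure D5:**
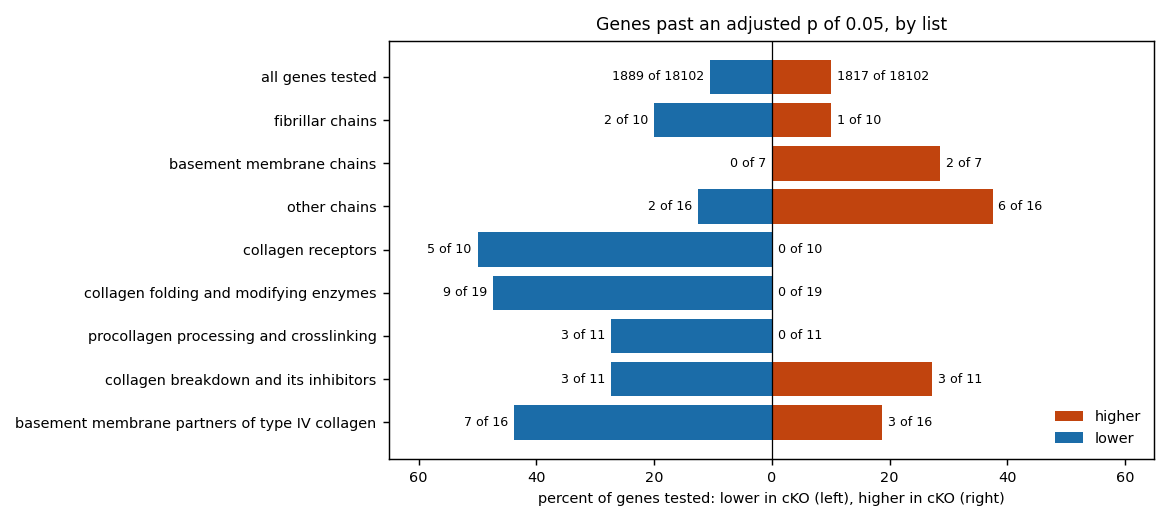
Percent of tested genes past an adjusted p of 0.05 in edgeR's fit with the replicate block, lower in cKO to the left and higher to the right, with counts beside the bars. Over all genes both sides are near 10%; collagen receptors, folding enzymes and processing genes have bars to the left only.

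Markers of progenitors and of other cells moved with the groups to differing degrees. Over all genes tested, 20.5% were called, 10.0% higher and 10.4% lower in cKO. Progenitor markers summed to 9011, 10689, 13486 and 13845 CPM in control and to 8291, 9533, 12014 and 12498 CPM in cKO. That sum was lower in cKO in 4 of 4 pairs. Of 10 progenitor markers tested 1 rose and 2 fell, 30% called and near the share over all genes. Oligodendrocyte markers summed to 591, 273, 1674 and 968 CPM in control and to 829, 349, 2725 and 1091 CPM in cKO, higher in 4 of 4 pairs, with 7 of 9 tested rising and 0 falling at an adjusted p under 0.05 in edgeR (8 at an unadjusted p under 0.05). Of 10 neuron markers, 6 rose (60%). Astrocyte markers summed to between 923 and 2803 CPM in control and between 913 and 2593 in cKO, most of it Slc1a3, which progenitors also express; 2 rose and 3 fell of 9 tested. Endothelial markers summed to between 5.30 and 12.9 CPM in control and between 5.54 and 10.7 in cKO, with 0 of 5 tested passing (3 at an unadjusted p under 0.05). Of 10 microglia markers listed, 7 were not among the 24155 genes counted (Aif1, C1qa, C1qb, Cx3cr1, Tmem119, Trem2 and Tyrobp). Of 2 microglia markers tested, 1 rose. Cldn5 and Cdh5 of the endothelial list and Anpep, Higd1b and Kcnj8 of the mural list were not among those genes either. Astrocyte, neuron and oligodendrocyte lists had a row for each member, and of 8 Schwann cell markers 1 rose and 2 fell of 5 tested. Their sum ran from 33.3 to 199 CPM in control and from 32.4 to 164.5 in cKO, lower in 4 of 4 pairs. The part of any of these cells in the collagen results was not tested.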

How the data were processed

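The submitters' processing notes name mm10 and, without versions or roles, STAR, cutadapt, Partek and DESeq2. The annotation and strand setting of the counting are not given there. Values deposited by the authors are estimated counts of genes before normalization; 52% of them have a fraction, and all were rounded to whole numbers for the fits.

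Genes were kept by filterByExpr (minimum count 10), which left 18102 of 24155. edgeR 4.0.16 in R 4.3.3 was run with TMM factors, replicate number as a block, glmQLFit (robust) and glmQLFTest, 2-sided, threshold 0.05. The fitted design has the block because batch names pair the libraries: deviations from group means correlated at 0.79, 0.79, 0.76 and 0.75 for equal numbers and at most 0.39 for unequal ones. No 2 libraries of a group were duplicates (chi-square per degree of freedom at least 54.4). Each standard error is the absolute log2 fold change over the root of F; log2 CPM used a prior count of 2. DESeq2 1.42.0 and limma 3.58.1 were alternatives. Exon lengths are unions of GENCODE M21 exons.

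The fit was tested on simulated data with known changes, where 7.1% of the calls of the blocked fit were false. It recovered 44.9% of log2 changes of 0.25, 67.3% of those of 0.5 and 85.1% of those of 1. The simulated spread followed the level of a gene rather than its own spread. Differences between chains used exact permutation within pairs.

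Members and lists were chosen with earlier results of these data known. Values in every library are given for chains past the threshold that average 1 CPM or more and for the 4 highest chains of each group. For collagen-related lists, up to 4 members with the smallest p are named, and for marker lists the 3 highest. Other genes, and Gpr17 and Pmp22 for their batch pattern, were named after their values were seen.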

Additional observations from a re-analysis of the deposited data

Results flagged for a closer look

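Library values were examined for 39 items (the 33 tested chains, Ehmt1, Ehmt2 and 4 summed levels of chains) in both groups, 78 sets of 4 in all, and 3 held a library far from the rest; chance gives about 1 in 20. Col18a1 was at 23.2 CPM in control replicate 1, against 1.73 to 3.64 CPM in the other control libraries. Col18a1 was likewise at 29.2 CPM in cKO replicate 1, against 2.51 to 4.58 CPM in the other cKO libraries. Col4a6 was at 4.24 CPM in control replicate 1, against 0.506 to 0.777 CPM in the other control libraries.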

How the results depend on the processing

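With no replicate block, 3 genes were called rather than 3706 (1 higher, 2 lower), and 0 collagen chains (0 higher, 0 lower) and 0 collagen-related genes (0 higher, 0 lower). In that fit 13 of the 13 chains kept their direction. This was nearly given, because each batch holds 1 library of each group and the block mainly changes the error. Without any 1 replicate pair, all genes called ran from 2102 to 3432 (higher 1127 to 1702, lower 910 to 1730), chains called from 9 to 11 (higher 5 to 8, lower 2 to 4) and collagen-related genes from 22 to 29 (higher 4 to 6, lower 17 to 23). With a filter of 1 CPM in 4 libraries, 5 chains rose, because Col1a2, Col20a1, Col6a1 and Col28a1 were no longer tested. All 13 calls held with RLE or upper-quartile factors, with no filter and in limma-voom; DESeq2 with the block lost Col6a1 and Col28a1. Upper-quartile scaling moved the median of all genes to 0.007 from -0.007. Signs turned only for chains not past the threshold. With no block, log2 fold changes were -0.077 for Col11a1 and 0.0005848 for Col5a1, and 0.003749 for Col5a1 with upper-quartile factors. Without any 1 replicate pair they ran from -0.045 to 0.27 for Col11a1, from -0.059 to 0.048 for Col5a1, from -0.16 to 0.028 for Col4a5, from -0.11 to 0.13 for Col4a4 and from -0.26 to 0.088 for Col23a1. The cause was not tested. Chains under 1 CPM rest on few counts, so counting error adds to their spread.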
